A study of Mus musculus with 6 samples.

Results

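The genes described here are 44 mouse genes known from macrophages, from antigen presentation and from the complement system, taken by name from a list of 44 symbols. All probe sets whose annotated symbol is one of the 44 were taken, where a probe set is a group of short probes that reads the transcripts it matches as a fluorescence signal. Of the 44 genes, 28 are macrophage genes, 4 belong to the class II and 3 to the class I antigen presentation system, 8 are complement genes or regulators that stromal cells also make, and 1 is Csf1, the growth factor that macrophages need. The genes had 86 probe sets of their own, among 22626 probe sets on the array without its 64 controls, and 43 of the 44 genes had at least 1. C4b was read only by a probe set shared with C4a, below the minimum described next, and is not described further. Emr1 is listed as Adgre1 and C1s as C1s1 in the current annotation.

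The samples were primary cultures of mesenchymal cells from the urogenital sinus (UGS), the embryonic tissue that forms the prostate, of male CD-1 fetuses at gestation day 17. The E2 group had 3 samples treated with 100 nM estradiol (E2) for 4 days with daily medium changes, and the control group had 3 samples that received the ethanol vehicle for the same 4 days. All 6 were first-passage cells in hormone-stripped medium with 690 pM dihydrotestosterone (DHT), an androgen that is not converted to estrogen, and all had spent 3 days without estrogen beforehand. The mesenchymal fraction was obtained by letting epithelial cells settle out of a collagenase digest, a step that uses no marker of macrophages. Whether the 3 samples of a group came from separate preparations of fetuses is not given in the sources used here, so a p-value here reflects only how far these samples lie apart, possibly for technical reasons.

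Macrophages are resident phagocytes of nearly every tissue, fetal ones included, and they depend on signals through Csf1r, the receptor for Csf1. Most C1q, the recognition part of the classical complement pathway, comes from macrophages, whereas its partner proteases C1r and C1s are also made by fibroblasts and other stromal cells. Class I molecules with beta-2 microglobulin are carried by nearly all nucleated cells, and class II molecules mainly by professional antigen-presenting cells. In RNA from a whole culture, fewer cells of a type and less RNA of that type per cell cannot be told apart.

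Each array was scaled to its median before log2 transformation, because the highest deposited median was 1.59 times the lowest, and values are given in units on that scale, where the median of each array was 17.2 units. A probe set was tested when its mean, by the values as deposited, was at least 10 units in E2 or in control, which kept 14223 probe sets in all and 59 of the 86 here, for 36 of the 44 genes. Differences are log2 values, E2 minus control, from limma, two-sided, with p-values adjusted over the 14223 probe sets by the Benjamini-Hochberg method, and each gene is represented by the brightest of its tested probe sets. Arrays correlated at 0.934 to 0.960 within groups and at 0.922 to 0.950 between them. E2 replicate 2 and control replicate 3 stood apart by their 18S ribosomal RNA signal. As deposited, without scaling, it was 288 and 281 units on these 2 arrays and 22.8 to 44.7 units in the other 4. Of the markers of other cells, all 11 mesenchymal genes on the array were tested, the brightest, Col1a2, at 3834 to 4329 units in E2 and 3975 to 4786 units in control, while 0 of 8 lymphocyte genes, 1 of 10 granulocyte and mast cell genes, 2 of 8 endothelial genes and 4 of 8 epithelial genes reached the minimum.

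No tested probe set of the 44 genes passed an adjusted p of 0.05 in either direction. Over all probe sets, 0.492% passed as higher and 0.253% as lower in E2. At an unadjusted p under 0.05, 0 of 36 genes were higher and 7 were lower in E2, against 3.44% higher and 4.55% lower over all probe sets tested. In 9 of the 36 genes all 3 E2 arrays lay below all 3 control arrays, and in 2 all E2 arrays lay above, against 8.49% and 5.72% of all probe sets. The log2 difference was below 0 in 30 of the 36 genes, against 56.6% of all probe sets tested. By probe set, 48 of 59 were below 0, 13 lower ones and 1 higher one had an unadjusted p under 0.05, and the median was -0.32. The median over all tested probe sets was -0.04.

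The macrophage genes had a median log2 difference of -0.37 over the 24 of 28 that were tested, and 21 of the 24 were below 0. All 24 were dim except the lysozymes: 22 had a mean under 100 units, and the median was 23.1 units, close to the 17.2 units at the middle of the array. Of the 24, 20 passed the minimum in both groups, 2 only in control (Cx3cr1 and Ccl3) and 2 only in E2 (Mrc1 and Ccl4). This favoured a negative difference for Cx3cr1 and Ccl3 and a positive one for Mrc1 and Ccl4. Itgam, an integrin chain, Fcgr1, the high-affinity IgG receptor, Ccr2, a chemokine receptor of monocytes, and Cd86, a T cell costimulator, were below the minimum in both groups, with values between 0.211 and 9.74 units.

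Among the macrophage genes, C1qb and C1qa had the most negative log2 differences, followed by the integrin chain Itgb2 and by C1qc. C1qb, which encodes the B chain, read 24.7, 20.7 and 14.9 units in E2 replicates 1 to 3, against 31.1, 58.9 and 55.1 units in control replicates 1 to 3. The groups did not overlap, and control replicates 2 and 3 were both at more than 2 times the highest E2 array. Its log2 difference was -1.24 (SE 0.28), with the smallest adjusted p of the 44 genes, 0.063 by limma. C1qa, the A chain, read 19.8, 12.0 and 16.9 units in E2 and 23.2, 28.8 and 34.3 units in control, again without overlap, a log2 difference of -0.84 (SE 0.28, adjusted p = 0.375 by limma). C1qc, the C chain, read 16.7, 7.10 and 14.9 units in E2 and 15.0, 22.7 and 19.98 units in control. Here control replicate 1 lay within the E2 values, and the log2 difference was -0.65 (SE 0.39, adjusted p = 0.723 by limma). A second, dimmer C1qb probe set read 17.5, 10.2 and 11.9 units in E2 and 17.4, 2.31 and 12.8 units in control, where the log2 difference was 0.68 (SE 0.66, adjusted p = 0.858 by limma), so the 2 probe sets of this gene gave opposite signs, and the difference of the dimmer one was about as large as its SE. C1qb passed the threshold, with an adjusted p of 0.0243 and a log2 difference of -1.53, when control replicate 1 was left out.

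The promoters of C1qb and C1qc, which lie close together on chromosome 4, are shown because both genes had a lower mean in E2 than in control. They run from 250 bases before to 50 bases after the RefSeq start in the GRCm38.p6 assembly, both on the minus strand, at chr4:136886151-136886450 for C1qb and chr4:136892865-136893164 for C1qc. Capitals mark GAGGAAG or its reverse complement CTTCCTC, a form of the site recognised by PU.1, a transcription factor of the macrophage lineage. Shorter or other forms of the site were not searched.
C1qb promoter: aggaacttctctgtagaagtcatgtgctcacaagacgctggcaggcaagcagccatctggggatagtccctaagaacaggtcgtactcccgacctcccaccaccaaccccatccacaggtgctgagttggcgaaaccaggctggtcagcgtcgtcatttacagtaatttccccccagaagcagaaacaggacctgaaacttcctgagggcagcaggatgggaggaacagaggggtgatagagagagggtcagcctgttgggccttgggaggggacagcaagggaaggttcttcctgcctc
C1qc promoter: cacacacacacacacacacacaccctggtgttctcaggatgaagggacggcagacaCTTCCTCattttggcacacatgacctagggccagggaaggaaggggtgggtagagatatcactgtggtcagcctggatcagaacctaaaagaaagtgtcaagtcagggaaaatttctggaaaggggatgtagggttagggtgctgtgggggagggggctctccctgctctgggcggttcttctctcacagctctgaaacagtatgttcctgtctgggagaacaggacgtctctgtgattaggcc
The C1qc window held the core once and the C1qb window did not hold these letters. Of 19 macrophage promoters found in the table for the 28 genes, 7 held GAGGAAG on either strand, those of C1qc, Cd53, Fcgr1, Fcgr3, Itgam, Laptm5 and Mrc1, against 13.5% of 27025 promoters of the same length. CCAAT, searched on both strands, was in 7 of the 19, against 37.9% of all promoters. Of the 3 class I promoters, 0 held GAGGAAG and all 3 held CCAAT, as did 2 of 2 class II promoters, and neither motif was in the 3 promoters found for the complement genes. Neither motif is contained in the other.

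The lysozymes, secreted enzymes that break down bacterial cell walls, were the only macrophage genes with a mean over 100 units. Lyz1 read 592, 590 and 571 units in E2 and 612, 974 and 1075 units in control. The E2 arrays lay close together, whereas control replicate 1 was near them and control replicates 2 and 3 were well above. The log2 difference was -0.56 (SE 0.17, adjusted p = 0.249 by limma), without control replicate 1 it was -0.81 with an adjusted p of 0.00849, and without control replicate 3 it was -0.40 with an adjusted p of 0.659. Lyz2, the form typical of macrophages, read 382, 317 and 412 units in E2 and 364, 458 and 589 units in control, and its log2 difference was -0.32 (SE 0.16, adjusted p = 0.663 by limma). It was -0.15 without control replicate 3, -0.50 without control replicate 1, and -0.041 without control replicate 3 and E2 replicate 2. Lyz1 and Lyz2 are near-identical copies, and probe sets of this kind can read both, so their 2 values are not separate evidence. A dimmer Lyz1 probe set had a log2 difference of -0.14 (SE 0.18).

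Tyrobp, the adaptor through which several myeloid receptors signal, read 33.3, 29.2 and 42.2 units in E2 and 43.4, 47.0 and 55.8 units in control. The groups did not overlap, by a small margin between E2 replicate 3 and control replicate 1. The log2 difference was -0.49 (SE 0.20, adjusted p = 0.576 by limma). Cd53, a leukocyte tetraspanin, also had separate groups, with 23.1, 27.3 and 23.6 units in E2 and 33.7, 29.9 and 37.2 units in control, a log2 difference of -0.44 (SE 0.22, adjusted p = 0.644 by limma). Mpeg1, which encodes the pore-forming protein perforin-2, was the sixth macrophage gene with all E2 arrays lowest, at 20.2, 20.7 and 22.8 units in E2 and 28.8, 26.0 and 28.6 units in control, a log2 difference of -0.39 (SE 0.23, adjusted p = 0.723 by limma).

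Csf1r, the receptor tyrosine kinase on which macrophages depend, read 38.1, 45.0 and 53.3 units in E2 and 42.7, 70.4 and 80.2 units in control by its brightest probe set. Control replicate 1 lay among the E2 arrays and the other 2 controls above them, a log2 difference of -0.47 (SE 0.23, adjusted p = 0.660 by limma). Another Csf1r probe set had the opposite sign, with 29.2, 26.1 and 24.5 units in E2 and 19.9, 21.3 and 6.76 units in control, a log2 difference of 0.90 (SE 0.39, adjusted p = 0.587 by limma). Control replicate 3, highest by the first of these probe sets, was lowest by the second. Without it the log2 differences were -0.28 and 0.36, and without control replicate 1 that of the first was -0.74. Csf1, the ligand, is made by stromal cells and was brighter, at 132, 110 and 134 units in E2 and 129, 136 and 155 units in control, a log2 difference of -0.16 (SE 0.14, adjusted p = 0.839 by limma). A dimmer Csf1 probe set separated the groups, with 66.3, 51.5 and 65.9 units in E2 and 101, 92.3 and 81.2 units in control, a log2 difference of -0.58 (SE 0.17, adjusted p = 0.215 by limma), and the remaining 2 were at -0.11 and -0.04.

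**Figure D1:**
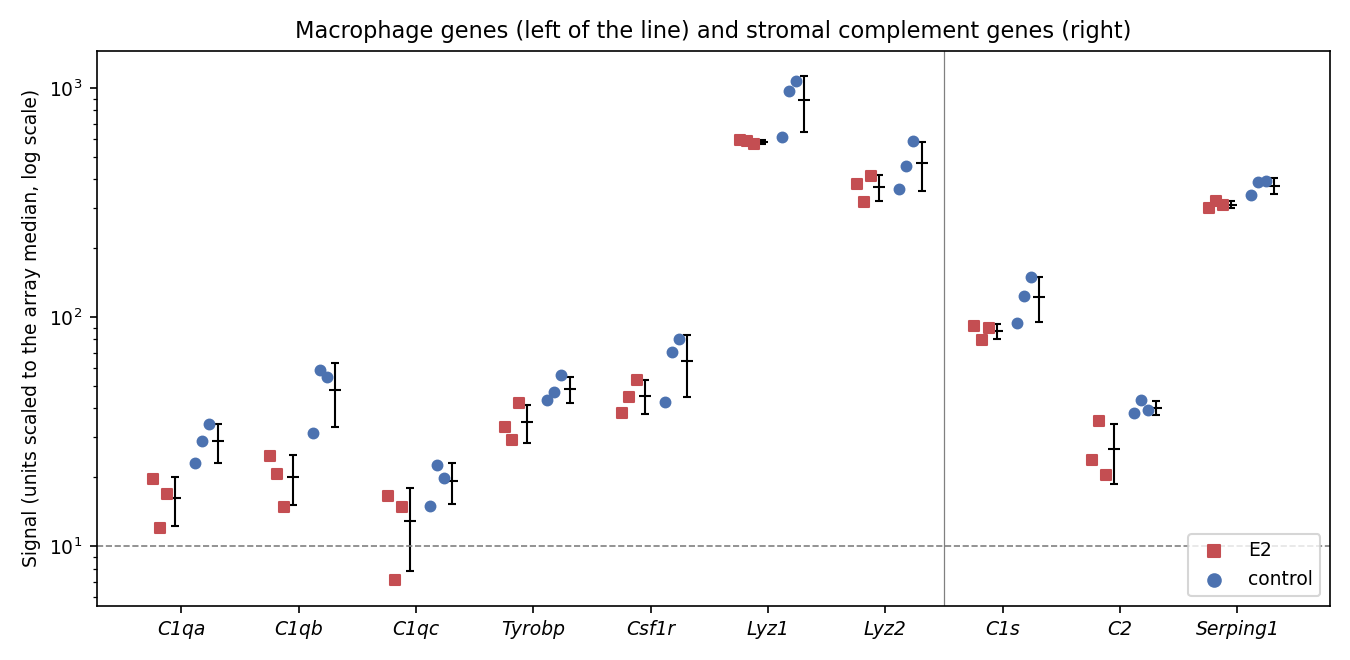
Signal of 7 macrophage genes (left of the vertical line) and 3 stromal complement genes (right) on each array, in units scaled to the array median on a log axis, with E2 arrays as squares, control arrays as circles, bars for the mean and SD of 3 arrays and a dashed line at the minimum of 10 units. Lyz1 was at 571 to 592 units in E2 and at 612 to 1075 units in control, while C1qa, C1qb and C1qc lay within 7.10 to 58.9 units on all 6 arrays.

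Cd52, Emr1 and Cd68, at intermediate signal, overlapped between the groups. Cd52, a leukocyte surface glycopeptide, read 41.9, 58.0 and 47.7 units in E2 and 35.4, 52.8 and 85.4 units in control, a log2 difference of -0.15 (SE 0.27). Emr1, which encodes the macrophage surface protein F4/80, read 37.9, 34.2 and 31.9 units in E2 and 33.9, 33.9 and 55 units in control, a log2 difference of -0.20 (SE 0.23). In both genes control replicate 3 was the high array, and without it the log2 difference was above 0, at 0.17 for Cd52 and 0.03 for Emr1. Cd68, a glycoprotein of macrophage lysosomes and endosomes, read 32.8, 28.0 and 28.7 units in E2 and 26.0, 42.6 and 44.8 units in control, with the lowest and the highest of the 6 both in control, a log2 difference of -0.30 (SE 0.24, adjusted p = 0.810 by limma).

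Receptors for the Fc part of antibodies and the signalling chain of the activating ones were below 0 as well, and their groups overlapped. Fcer1g, the signalling chain, ran at 20.5, 35.8 and 36.0 units in E2 and 19.1, 58.5 and 68.2 units in control, a log2 difference of -0.51 (SE 0.39). Fcgr3, an activating IgG receptor, had a log2 difference of -0.58 (SE 0.36) and Fcgr2b, the inhibitory one, of -0.23 (SE 0.29). Itgb2, the integrin chain common to leukocytes, read 5.95, 20.6 and 14.6 units in E2 and 16.7, 23.1 and 23.5 units in control, a log2 difference of -0.78 (SE 0.42, adjusted p = 0.691 by limma), with its lowest value in E2 replicate 1. Ptprc, the pan-leukocyte phosphatase CD45, and Laptm5, a lysosomal membrane protein of blood cells, were at -0.43 and -0.36. The mannose receptor Mrc1, the fractalkine receptor Cx3cr1 and the chemokine Ccl3 were at -0.33, -0.34 and -0.35, each with an SE of 0.45 to 0.64. Cx3cr1 and Ccl3 passed the minimum only through control, which favoured this direction, and Mrc1 only through E2.

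Only 3 tested macrophage genes had a log2 difference above 0. Cd80, a costimulator of T cells, read 13.8, 23.5 and 11.1 units in E2 and 8.50, 11 and 10.9 units in control, with E2 replicate 2 the high array and the other E2 arrays just above the controls. Its log2 difference was 0.61 (SE 0.41, adjusted p = 0.764 by limma), and 0.30 without E2 replicate 2. The study lists Cd80 on these same arrays, so its direction here is not independent evidence. The chemokine Ccl4 was at 0.42 (SE 0.57), but it passed the minimum only through E2, which favoured this direction. The scavenger receptor Msr1 was at 0.09 (SE 0.35) by its brightest probe set. A second Msr1 probe set read 6.96, 10.4 and 10.1 units in E2 and 17.1, 18.8 and 22.3 units in control, without overlap, a log2 difference of -1.10 (SE 0.37, adjusted p = 0.367 by limma), and the remaining one was at 0.51 (SE 0.50). The former passed the minimum only through control and the latter only through E2, which favoured the direction of each.

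**Figure D2:**
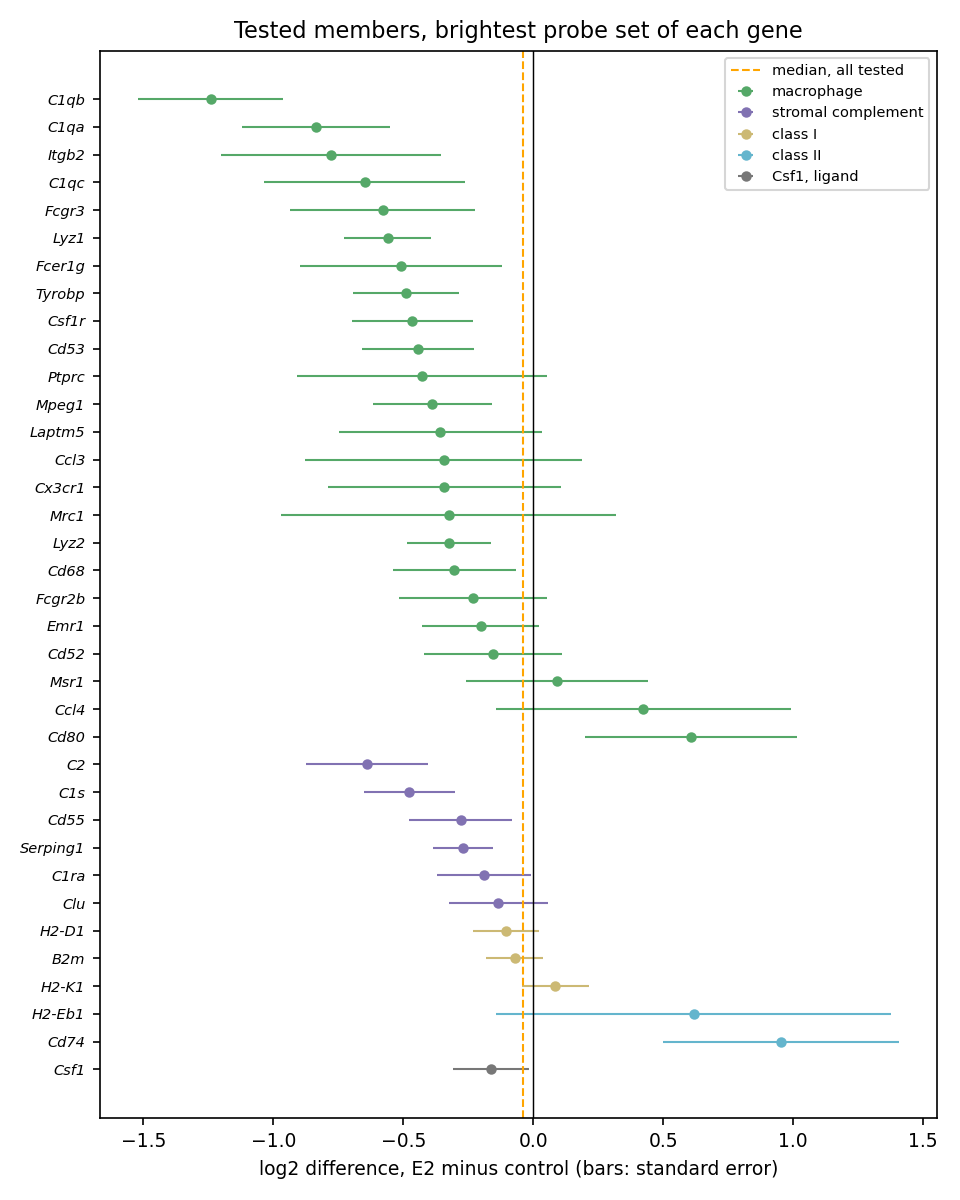
Log2 difference (E2 minus control) of the 36 tested genes by their brightest probe set, with bars for the standard error, in order within each list, a solid line at 0 and a dashed line at the median of all tested probe sets (-0.04). In the macrophage list 21 of 24 points lie left of 0, in the stromal complement list 6 of 6, and the 3 class I genes lie between -0.11 and 0.08.

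The macrophage genes shared a high control replicate 3, with control replicate 2 next, while the E2 arrays showed little movement in common. Control replicate 3 was the highest of the 6 arrays for 14 of 24 genes (58.3%), against 21.6% of all probe sets tested, and the lowest for 0 of 24. This array was also the highest for 6 of 11 mesenchymal genes (54.5%), so a high control replicate 3 was not particular to the macrophage list. It lay above the gene's own 6-array mean for 23 of 24 genes, control replicate 2 for 17, and control replicate 1 for 11, while E2 replicates 1, 2 and 3 did so for 7, 9 and 8. The median deviation from that mean was -0.26, -0.18 and -0.11 in E2 replicates 1, 2 and 3 and -0.07, 0.18 and 0.51 in control replicates 1, 2 and 3, on the log2 scale. Over all tested probe sets the same medians lay between -0.11 and 0.05. Within the E2 group, 11, 12 and 13 of 24 genes lay above their group mean in replicates 1, 2 and 3. Within control these counts were 7, 13 and 23, so the shared movement lay mainly in control replicates 1 and 3. Scaling divided control replicate 3 by 0.814 and control replicate 2 by 1.16, which raised the former against the latter. The order of arrays under other scalings was not tested.

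Control replicate 1 thus sat nearer to the E2 arrays than to the other controls in this list. Summed over the 24 genes, the signal was 1412, 1391 and 1462 units in E2 and 1458, 2060 and 2422 units in control, sums that the lysozymes dominate. Control replicates 2 and 3 both lay above all 3 E2 arrays for 14 of 24 genes (58.3%), against 14% of all tested probe sets, and control replicate 1 did so for 7 (29.2%), against 26.8%. This pair holds the 2 arrays that were high in these same genes, so its excess was partly built in. The pair of control replicates 1 and 2 did so for 25% of the genes, against 13.5%, and that of 1 and 3 for 29.2%, against 13.6%. Without control replicate 3 the median log2 difference of the 24 genes was -0.22, with 19 below 0, and without control replicate 1 it was -0.52, with 21 below 0. Leaving out control replicate 3 together with E2 replicate 2, the other array with a high 18S signal, gave -0.27, with 18 below 0. The part of the 18S signal in the macrophage values was not tested. Control replicate 3 was also high for bright genes in general, being the highest array for 32.6% of probe sets averaging 100 units or more and for 17.8% of dimmer ones. Of these 24 genes, 22 were among the dimmer ones, and the part of this general pattern in their values was not tested.

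A second list of 44 further macrophage and myeloid genes, which holds none of the 28, had 28 tested genes. Of these, 20 passed the minimum in both groups, 6 only in control and 2 only in E2, which favoured a negative difference for the 6 and a positive one for the 2. The median log2 difference of the 28 was -0.34, with 25 of 28 below 0, against 56.6% of all probe sets tested. At an unadjusted p under 0.05, 1 was higher and 2 were lower, against 3.44% and 4.55% of all probe sets tested. At an adjusted p of 0.05, 0 passed. Control replicates 2 and 3 both lay above all E2 arrays for 14 of 28 (50%), against 14% of all tested probe sets. This pair stood out in the first list on these same arrays, so the count is not separate support. The pairs of control replicates 1 and 2 and of 1 and 3 each did so for 21.4%, against 13.5% and 13.6%. The list was also chosen with earlier results of these data known. The median deviation was -0.19, -0.15 and -0.06 in E2 and -0.04, 0.32 and 0.37 in control. Ctss, a lysosomal protease of antigen-presenting cells, read 24.5, 19.4 and 20.1 units in E2 and 32.2, 36.7 and 38.8 units in control, without overlap, a log2 difference of -0.75 (SE 0.22, adjusted p = 0.239 by limma). Tlr2, a receptor for bacterial lipoproteins, read 19.1, 25.4 and 29.1 units in E2 and 41.2, 37.8 and 35.2 units in control, a log2 difference of -0.65 (SE 0.23, adjusted p = 0.390 by limma). For Tlr2 control replicate 1 was the highest array, unlike most of the list. Trem2, a receptor that signals through Tyrobp, ran the other way, at 13.8, 29.9 and 17.7 units in E2 and 6.84, 6.99 and 9.78 units in control, a log2 difference of 1.32 (SE 0.42, adjusted p = 0.307 by limma), all control arrays being below 10 units. It passed the minimum only through E2, so this direction was built into its selection. The 3 brightest of the list, Gpnmb, Cd14 and Lcp1, overlapped between groups and were at -0.24, -0.17 and -0.25. Spi1, which encodes PU.1, read 22.8, 8.38 and 16.4 units in E2 and 16, 20.2 and 20.2 units in control, a log2 difference of -0.35 (adjusted p = 0.877 by limma).

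**Figure D3:**
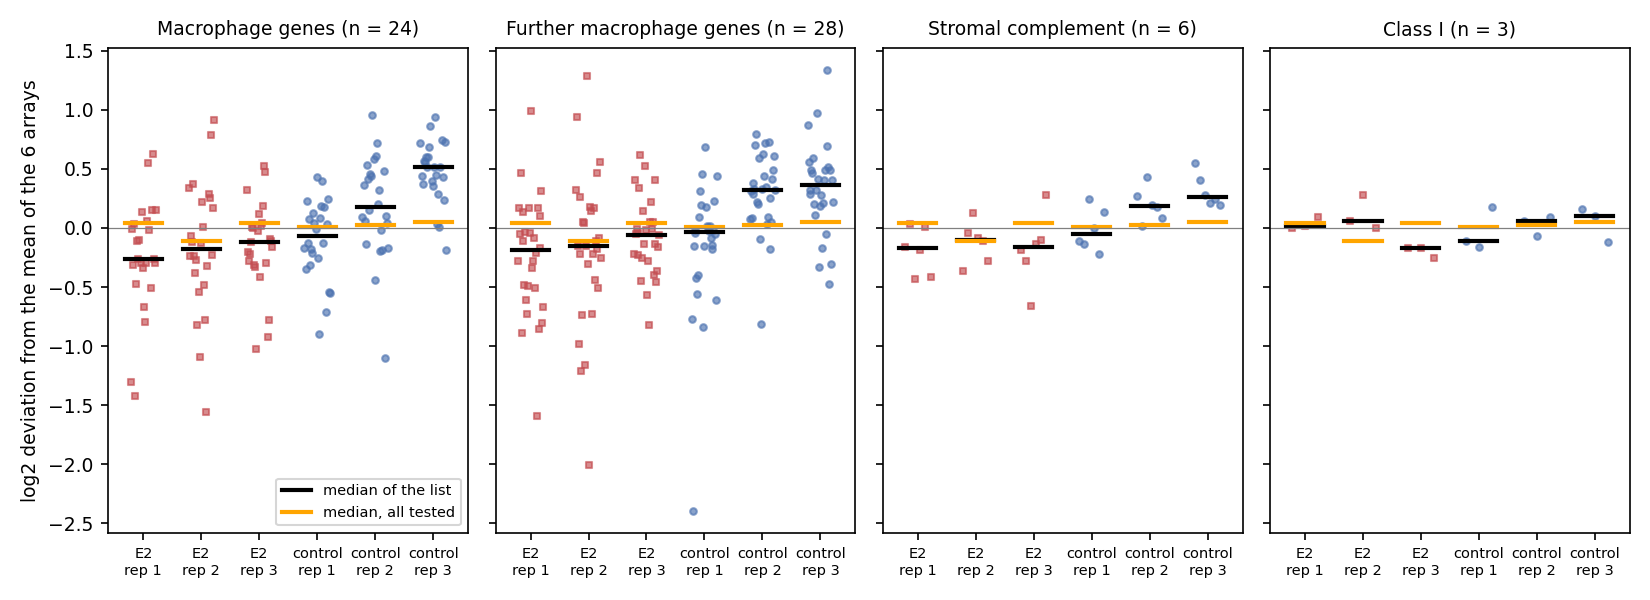
Log2 deviation of each gene from its own mean over the 6 arrays, by array, for the tested macrophage genes (n = 24), the further macrophage genes (n = 28), the stromal complement genes (n = 6) and the class I genes (n = 3), 1 point per gene, with a black bar at the median of the list and an orange bar at the median of all tested probe sets. In the macrophage genes the black bar lies at -0.26 to -0.11 in the 3 E2 arrays and at -0.07, 0.18 and 0.51 in control replicates 1, 2 and 3.

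The stromal complement genes had a median log2 difference of -0.28 and, like the macrophage genes, were highest in control replicate 3 and next in control replicate 2 by their median deviation. Of the 8, Cfb, a protease of the alternative pathway, was below the minimum at 1.75 to 10.6 units, and C4b had no probe set of its own. All 6 tested genes were below 0, against 56.6% of all probe sets tested. At an unadjusted p under 0.05, 3 of the 6 were lower, against 4.55% of all probe sets tested. The median deviation of the 6 genes was -0.17, -0.10 and -0.16 in E2 and -0.05, 0.18 and 0.26 in control. Control replicate 3 was the highest array for 4 of 6, against 21.6% of all probe sets tested. Control replicates 2 and 3 both lay above all E2 arrays for 4 of 6 (66.7%), against 14% of all tested probe sets. This pair stood out in the macrophage list on these same arrays, so the count is not separate support. The pairs of control replicates 1 and 2 and of 1 and 3 each did so for 50%, against 13.5% and 13.6%. The summed signal was 572 to 589 units in E2 and 636 to 792 units in control, without overlap. The difference between this list and the macrophage genes was not tested.

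C1s, the protease of the first complement component, read 91.3, 79.2 and 89.7 units in E2 and 94.7, 123 and 150 units in control, a log2 difference of -0.48 (SE 0.18, adjusted p = 0.445 by limma). The groups were separate, but control replicate 1 was only a few units above the E2 arrays. C1ra, its partner protease, read 72.1, 68.5 and 58.0 units in E2 and 64, 71.4 and 93.4 units in control, overlapping, a log2 difference of -0.19 (SE 0.18). C2, the next protease of the classical pathway, was dimmer, at 23.9, 35.3 and 20.5 units in E2 and 38.3, 43.5 and 39.2 units in control, a log2 difference of -0.64 (SE 0.23, adjusted p = 0.445 by limma). For C2 all 3 controls were close together and above the E2 arrays.

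The promoter of C1s is shown beside those of the C1q chains because C1s joins the same complex but is made by stromal cells. It lies on the minus strand at chr6:124542310-124542609 in GRCm38.p6, taken from RefSeq under the symbol C1s1, over the same 250 bases before and 50 bases after the start, and neither motif was found in it.
C1s1 promoter: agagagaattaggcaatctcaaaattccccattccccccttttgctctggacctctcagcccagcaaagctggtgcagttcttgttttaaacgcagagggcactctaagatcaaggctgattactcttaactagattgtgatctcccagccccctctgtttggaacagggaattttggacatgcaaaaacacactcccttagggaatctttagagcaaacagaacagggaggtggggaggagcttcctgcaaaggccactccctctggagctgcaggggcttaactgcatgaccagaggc

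The inhibitors in the list also had negative log2 differences. Serping1, the inhibitor of C1r and C1s, was the brightest of the list and read 299.9, 321 and 310 units in E2 and 341, 389 and 395 units in control, without overlap, a log2 difference of -0.27 (SE 0.12, adjusted p = 0.587 by limma). Clu, which encodes clusterin, an inhibitor of the terminal pathway, read 44.2, 40.6 and 41.0 units in E2 and 37.7, 49.6 and 52.1 units in control by its brightest probe set, a log2 difference of -0.13 (SE 0.19), and its other 3 probe sets were at -0.34, -0.54 and -0.77. The Clu probe set at -0.77 read 14, 17.1 and 16.6 units in E2 and 23.2, 35.8 and 23.9 units in control, without overlap (SE 0.28, adjusted p = 0.428 by limma). Cd55, a surface regulator that dissociates complement convertases, read 41.1, 45.2 and 66.8 units in E2 and 60.3, 58.3 and 63.0 units in control, with E2 replicate 3 above all controls, a log2 difference of -0.28 (SE 0.20). Of 17 further complement genes, 4 were tested, with 2 above and 2 below 0. Cfp, properdin of the alternative pathway, read 12.9, 1.16 and 9.34 units in E2 and 10.7, 18.7 and 23.2 units in control, a log2 difference of -1.68 (SE 0.77, adjusted p = 0.624 by limma). It passed the minimum only through control, which favoured this direction, and its lowest value was in E2 replicate 2.

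The class I genes were bright, at means of 591 to 1326 units over the 6 arrays. Their median deviation was 0.01, 0.06 and -0.17 in E2 and -0.11, 0.06 and 0.10 in control. Control replicate 3 was thus highest here too, as in the macrophage list, but E2 replicate 2 came next. H2-K1, a class I heavy chain, read 708, 852 and 623 units in E2 and 628, 669 and 750 units in control, a log2 difference of 0.08 (SE 0.13). H2-D1, the other heavy chain, read 628, 589 and 492 units in E2 and 667, 628 and 542 units in control, a log2 difference of -0.11 (SE 0.13). B2m, beta-2 microglobulin, read 1323, 1379 and 1176 units in E2 and 1225, 1375 and 1479 units in control, a log2 difference of -0.07 (SE 0.11). All 3 overlapped between groups and were lowest in E2 replicate 3. Control replicates 2 and 3 were both above the E2 arrays for 0 of 3, against 14% of all tested probe sets. With only 3 genes, this count cannot set the list apart from the others. The heavy chains are close copies of each other, 1 tested probe set is annotated to both, and their probe sets can share transcripts.

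Other probe sets of the class I genes gave larger differences. The dimmer B2m probe set read 767, 881 and 946 units in E2 and 1275, 1075 and 1237 units in control, without overlap, a log2 difference of -0.47 (SE 0.12, adjusted p = 0.106 by limma). The 2 B2m probe sets thus differed by more than the SE of either, and which of them follows the gene was not tested. A second H2-D1 probe set read 364, 387 and 415 units in E2 and 613, 405 and 471 units in control, a log2 difference of -0.33 (SE 0.14, adjusted p = 0.587 by limma), with control replicate 1 the high array. Of the 12 genes with more than 1 tested probe set, Csf1r, C1qb, Laptm5, Msr1, H2-K1 and H2-D1 had probe sets on both sides of 0.

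**Figure D4:**
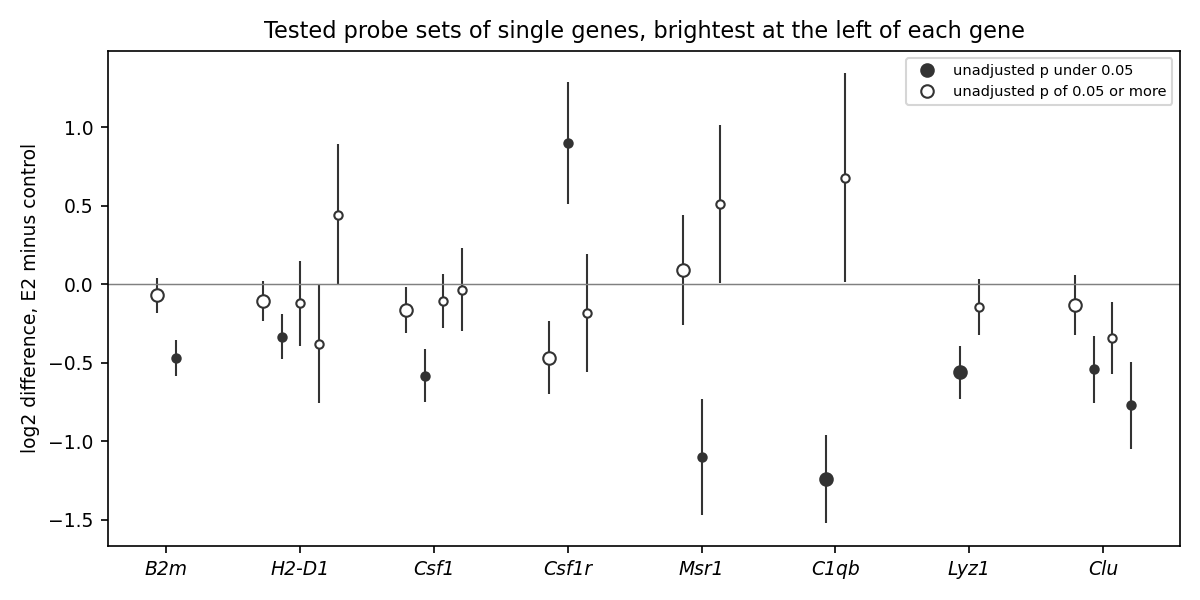
Log2 difference (E2 minus control, with standard error) of every tested probe set of 8 of the genes, the brightest at the left of each gene with a larger symbol, filled where the unadjusted p was under 0.05. The probe sets of Csf1r run between -0.47 and 0.90, those of C1qb between -1.24 and 0.68, and the B2m probe sets lie at -0.07 and -0.47.

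Class II genes were at the limit of what the arrays read. H2-Aa and H2-Ab1, the chains of the I-A molecule, were below the minimum at 0.327 to 12.6 units on all their probe sets and arrays. Cd74, the invariant chain that guides class II molecules to the endosome, read 11, 20.6 and 13.7 units in E2 and 6.42, 7.68 and 8.69 units in control. All E2 arrays lay above all controls, the controls all being under 10 units, and the log2 difference was 0.95 (SE 0.45, adjusted p = 0.632 by limma). H2-Eb1, a chain of the I-E molecule, read 9.51, 16.7 and 5.45 units in E2 and 8.10, 2.08 and 14.2 units in control, a log2 difference of 0.62 (SE 0.76). Both passed the minimum only through the E2 group, so a difference in that direction was built into their selection.

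Of 18 genes that process antigen for both classes, 15 were tested, with 8 above 0 and 7 below, and a median of 0.02. Over all probe sets tested, 56.6% were below 0. At an unadjusted p under 0.05, 1 was higher and 1 lower, against 3.44% and 4.55% of all probe sets tested. Psmb8, a subunit of the immunoproteasome, read 65.5, 81.3 and 53.2 units in E2 and 38.9, 53.8 and 50.9 units in control, a log2 difference of 0.47 (SE 0.20, adjusted p = 0.587 by limma). Ifi30, a lysosomal thiol reductase, read 624, 463 and 556 units in E2 and 641, 703 and 755 units in control, without overlap, a log2 difference of -0.36 (SE 0.13, adjusted p = 0.414 by limma). The brightest of the list, Pdia3 and Calr, chaperones of the endoplasmic reticulum, were at -0.07 and 0.02. Ciita, the activator of class II transcription, was below the minimum.

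Markers of the other cells gave values to set beside the macrophage list. The mesenchymal genes had a median log2 difference of -0.08, with 9 of 11 below 0, against 56.6% of all probe sets tested. Most of them averaged 100 units or more, and 65.6% of all tested probe sets that bright were below 0. The summed signal of the mesenchymal genes was 14727 to 15522 units in E2 and 15374 to 17423 units in control, overlapping. Control replicate 3 was the highest array for 6 of 11 mesenchymal genes (54.5%) and lay above the gene's own mean for all 11. It was the highest for 21.6% of all probe sets tested and for 32.6% of those averaging 100 units or more. Control replicates 2 and 3 both lay above the E2 arrays for 3 of 11 (27.3%), against 14% of all tested probe sets. Control replicate 1 lay above the E2 arrays for 6 (54.5%), against 26.8%. Postn, a matrix protein of fibroblasts, read 425, 455 and 380 units in E2 and 517, 491 and 621 units in control, without overlap, a log2 difference of -0.37 (SE 0.13, adjusted p = 0.381 by limma). For 4 of 4 tested epithelial keratins all E2 arrays lay above all control arrays, against 5.72% of all probe sets tested. However, 3 of the keratins (Krt8, Krt14 and Krt19) passed the minimum only through E2, so that this direction was built into their selection. Krt19 read 17.2, 17.7 and 21.6 units in E2 and 13.1, 2.83 and 10.1 units in control, a log2 difference of 1.38 (SE 0.54, adjusted p = 0.503 by limma). Krt18 was above the minimum in both groups and passed the threshold, at 83.5, 60.4 and 72.1 units in E2 and 42.3, 38.2 and 36.8 units in control, a log2 difference of 0.87 (SE 0.18, adjusted p = 0.0416 by limma). Cdh1, Epcam, Krt5 and Cldn4, defining markers of epithelium, were below the minimum in both groups. The share of macrophages in the cultures was not measured, and whether the values of the macrophage list follow it was not tested.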

How the data were processed

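RNA of 6 samples, 3 E2 and 3 control by their labels, was read on Affymetrix mouse expression arrays. The authors turned the scans into the deposited intensity values, linear and 1 per probe set, using the manufacturer's software. For its version, signal algorithm, background correction and scaling, details were not given in the sources used here. By the methods, the study set aside genes under 10 units in both groups, and they name no test. For the arrays no genome build is stated, and promoter sequences came from RefSeq (GRCm38.p6).

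Each array was scaled to its median. Probe sets averaging at least 10 units in E2 or in control, as deposited, were fitted in R 4.3.3 with limma 3.58.1 (lmFit, then eBayes allowing a trend of variance on signal) as E2 minus control, with a threshold of 0.05 for adjusted and for unadjusted p. The fit was tested on simulated data. Symbols came from the platform annotation, updated by gene identifier: 20380 probe sets had 1 symbol, 691 several and 1555 none listed. Probe sets with several symbols were tested but given to no gene. A gene is given by its tested probe set of highest average log2 signal, and others are given where they differ in sign or call.

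Values per array are given for genes with an unadjusted p under 0.05, the 6 brightest macrophage genes, the class I, class II, complement and Csf1 genes tested, Cd80, and in other lists for genes with an unadjusted p under 0.05. Other genes with values per array (C1qc, Cd68, Cd53, Mpeg1, Fcer1g, Itgb2, Spi1) were added after their values were seen. The 44 genes and the other lists were chosen with earlier results of these data known.

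Alternatives were values as deposited, quantile and trimmed-mean scaling, log2(value + 16), a 10-unit floor, a 100-unit filter, no filter, eBayes without trend, no moderation, array weights, the replicate block, averaging the probe sets of a gene, each array left out, and 2 arrays left out together. A mean of at least 20 units over all arrays was chosen after seeing the data. Arrays have no read depth, and precision is limited by their number.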

Additional observations from a re-analysis of the deposited data

How the results depend on the processing

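The 44 genes gave 0 calls higher in E2 under every alternative run. Calls lower in E2 numbered 0 as reported, 1 with array weights and 1 with log2(value + 16), both times C1qb (adjusted p of 0.0267 and 0.0479), and 0 to 2 with each array left out, the 2 being C1qb (0.0243) and Lyz1 (0.00849) without control replicate 1. Over all probe sets, the 70 higher and 36 lower calls became 112 and 70 with array weights, 15 and 1 without trend, 3 and 0 without moderation, and 39 and 7 with the values as deposited. A filter at 100 units gave 41 higher calls. With each array left out they numbered 37 to 75 higher and 11 to 31 lower, the lowest without E2 replicate 1 and without control replicate 3, and without both control replicate 3 and E2 replicate 2 there were 82 and 27. Same-numbered samples did not pair (correlations of 0.0078, -0.053 and -0.058), and a replicate block gave 61 higher and 27 lower calls, 0 of them among the 44 genes. The median of the macrophage genes stayed below 0, from -0.52 without control replicate 1 to -0.22 without control replicate 3, also at -0.22 with log2(value + 16), -0.31 as deposited, and -0.44 for the 13 genes averaging at least 20 units. That of the stromal complement genes ran from -0.38 with the mean of probe sets to -0.21 as deposited. Signs turned for B2m (0.016, quantile scaling), H2-K1 (-0.035 without E2 replicate 2, range to 0.19 with each array left out), H2-Eb1 (-0.17 without control replicate 2, range to 1.21), Csf1 (0.0016, without control replicate 3 and E2 replicate 2), Cd52 (0.17 without control replicate 3, range from -0.46, and 0.047 without both arrays) and Emr1 (0.030, range from -0.32, and 0.038), and the cause was not tested. Of the 24 macrophage genes tested, 22 averaged under 100 units, where the median SE over all probe sets was 0.26, against 0.14 for brighter ones.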
